A study of Mus musculus with 2 samples.

Results

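Wide continuous hypersensitive regions are stretches of the genome in which DNase I cut above background without a break over 600 bp or more in both adrenal libraries. They were chosen by the authors' own measured values: intervals with a deposited false discovery rate at or under 0.05 were joined where they touched, and a joined run of 600 bp or more in replicate 1 was kept when it overlapped a run of 600 bp or more in replicate 2. On the 19 autosomes 11928 regions met this rule, which is 5.48% of the 217746 runs of replicate 1. Replicate 2 had 211530 runs. Width and the shared call are therefore what selected the members and are given as a description. Counts of peaks and footprints and peak heights come from the same reads and are also description. The position relative to genes, the sequence and the identity of the genes were not used by the rule.

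Each library was made from the whole adrenal gland of a female mouse, 36 days old, of the hybrid B6CASTF1/J. Such mice are the F1 of a cross between C57BL/6J and CAST/EiJ, a strain derived from wild mice. The study has 1 group of 2 libraries, biological replicates 1 and 2. The labels number the animals differently but give them 1 donor record, so the spread between the libraries may be partly technical. There is no treated or second tissue group, and the comparisons below set the wide regions against 135125 narrower runs, which are runs of replicate 1 under 600 bp that overlap any run of replicate 2. Neither these libraries nor the regions within them allow a test between conditions, so values carry no p-value. The labelled tissue was checked by peaks at marker promoters, which 9 and 8 of 10 cortex genes had in replicates 1 and 2, with median heights of 4.88 and 7.06. The values for 6 medulla markers were 4 and 5 genes with a peak and median heights of 0.869 and 1.06. Hsd3b1, a defining enzyme of the cortex, had no promoter peak in either library. Of 4 kidney markers, 2 and 3 had a peak, with median heights of 0.229 and 0.419. All 4 stroma and capsule markers had a peak in both libraries, with median heights of 4.67 and 7.19, near those of cortex. Of 6 endothelial markers 5 and 6 had a peak (medians 1.83 and 2.45), and of 4 macrophage markers 2 and 3 (0.411 and 0.966). The check thus did not set cortex apart from stroma and capsule. In a whole gland, fewer cells of a type and less signal per cell cannot be told apart.

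DNase I cuts DNA that is free of a stable nucleosome. A typical hypersensitive site is short, because it is the gap left when transcription factors displace a nucleosome, while longer open stretches span several such gaps. Promoters in CpG islands, which are GC-rich stretches that kept their CpG dinucleotides and are usually unmethylated, are known to hold broad open chromatin in many tissues, and many serve housekeeping genes and transcription factors. Many genes that 1 tissue alone expresses strongly have promoters outside CpG islands.

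The contrast in sequence that runs through the results is shown with 240 bp of the mm10 reference around the strongest replicate 1 peak of 5 wide regions and, as a contrast, 1 narrower promoter run. Capitals mark CpG dinucleotides, and each sequence reads 5′ to 3′ on the strand of its gene, or on the plus strand for the regions away from promoters.
Jun, chr4:95052261-95052500, minus strand: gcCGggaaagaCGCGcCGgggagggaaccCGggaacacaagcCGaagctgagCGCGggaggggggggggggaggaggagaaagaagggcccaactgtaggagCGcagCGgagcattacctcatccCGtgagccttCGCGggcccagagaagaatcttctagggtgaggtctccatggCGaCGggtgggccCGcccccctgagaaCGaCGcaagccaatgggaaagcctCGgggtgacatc
Klf13, chr7:63938931-63939170, minus strand: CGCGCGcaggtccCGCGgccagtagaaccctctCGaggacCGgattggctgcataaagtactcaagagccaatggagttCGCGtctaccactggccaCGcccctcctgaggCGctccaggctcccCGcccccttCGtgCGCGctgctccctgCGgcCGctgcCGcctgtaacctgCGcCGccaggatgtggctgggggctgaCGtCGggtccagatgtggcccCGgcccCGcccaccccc
Insig1, chr5:28071131-28071370, plus strand: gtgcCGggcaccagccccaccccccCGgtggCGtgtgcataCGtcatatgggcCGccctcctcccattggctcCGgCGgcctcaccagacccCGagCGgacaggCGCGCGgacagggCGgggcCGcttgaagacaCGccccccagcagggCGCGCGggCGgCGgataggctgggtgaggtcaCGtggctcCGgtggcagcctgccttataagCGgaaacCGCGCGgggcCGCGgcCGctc
Bcl9 intron, chr3:97297871-97298110, plus strand: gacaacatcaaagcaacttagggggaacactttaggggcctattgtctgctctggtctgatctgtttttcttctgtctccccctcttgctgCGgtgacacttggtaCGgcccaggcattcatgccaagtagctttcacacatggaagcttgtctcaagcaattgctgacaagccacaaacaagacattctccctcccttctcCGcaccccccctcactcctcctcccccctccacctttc
Between genes, nearest Irf2bp2, chr8:126735991-126736230, plus strand: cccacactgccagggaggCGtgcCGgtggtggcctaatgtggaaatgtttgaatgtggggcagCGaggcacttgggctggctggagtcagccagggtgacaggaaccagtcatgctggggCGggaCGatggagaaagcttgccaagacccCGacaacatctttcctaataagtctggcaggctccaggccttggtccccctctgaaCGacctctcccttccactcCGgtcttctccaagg
Cyp11a1, narrower run, chr9:58014871-58015110, plus strand: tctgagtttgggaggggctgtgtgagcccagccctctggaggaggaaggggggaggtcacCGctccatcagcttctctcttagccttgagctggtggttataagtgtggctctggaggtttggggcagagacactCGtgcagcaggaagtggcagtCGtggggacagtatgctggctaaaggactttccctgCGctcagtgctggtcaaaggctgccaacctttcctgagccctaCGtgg

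The stretches from the wide promoter regions of Jun, Klf13 and Insig1 held 19, 24 and 29 CpGs, with a GC content of 66.2%, 70.8% and 74.6%. Those of Bcl9 and of the region nearest Irf2bp2 held 3 and 8 CpGs. The stretch of Cyp11a1, the enzyme that starts steroid synthesis by cleaving the side chain of cholesterol, held 5. GC boxes, the GGGCGG motif bound by SP and KLF factors, were counted on both strands. Jun had 1, Klf13 had 2 and Insig1 had 3, against 1 near Irf2bp2 and 0 in Bcl9 and Cyp11a1. Relative to the annotated start, with negative values upstream, the strongest peak lay at -159 bp for Jun, -136 bp for Klf13, -112 bp for Insig1 and 320 bp for Cyp11a1.

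**Figure D1:**
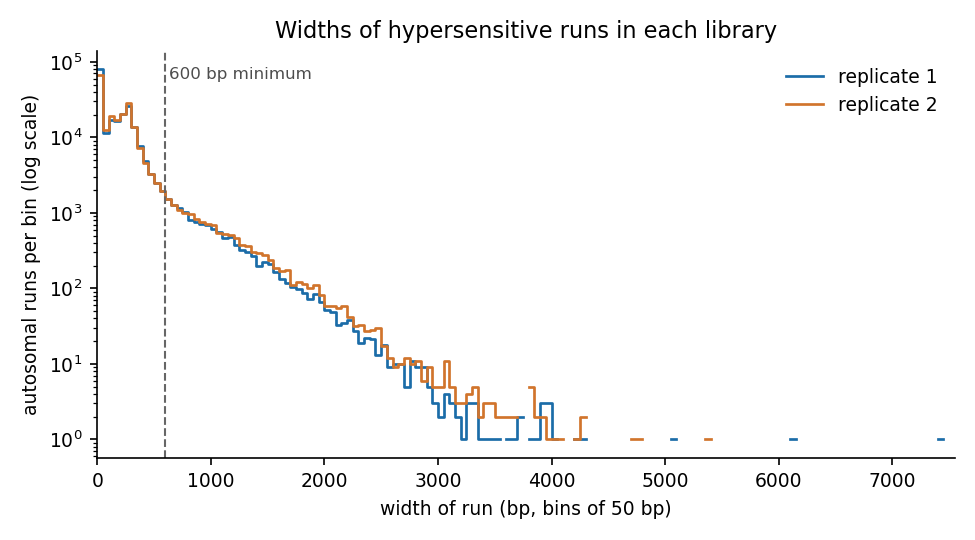
Number of autosomal runs in each 50 bp bin of width, on a log axis, for replicate 1 and replicate 2. Both lines fall without a break at the 600 bp minimum (dashed line), and the widest runs reach 7433 bp in replicate 1.

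The wide regions had a median width of 950 bp in replicate 1 and 1019 bp in replicate 2, and 95% of them were at most 1890 and 2063 bp wide. They covered 12.7 Mb, or 28.0% of the 45.2 Mb in autosomal runs of replicate 1. Since the rule required a wide partner, the overlap and the widths of the members describe them and do not show how well the libraries agree. The median overlap was 92.0% of the union of the 2 runs, and the widths had a Pearson correlation of 0.76 and a Spearman correlation of 0.78 across the 11928 regions, all from the same 2 libraries. The region was wider in replicate 2 in 61.9% of cases. Of the 13327 wide runs of replicate 1, 89.5% were members, and of the 14520 wide runs of replicate 2, 81.4% overlapped a member. A further 1399 wide runs of replicate 1 found no wide partner. Of these, 20 met no run at all, and the widest overlapping run of replicate 2 had a median of 479 bp.

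The 600 bp limit cut through a continuous distribution, as the plot of widths shows. Just inside it were 187 members less than 10 bp over the minimum, of which 53.5% lay at promoters, with a median CpG ratio of 0.516. Just outside were 359 shared runs at most 10 bp under it, of which 37.6% lay at promoters, with a median CpG ratio of 0.364. Of these, 185 overlapped a wide run of replicate 2, as every member does by the rule. The 2 sets thus differ in this filter as well as in width, and the 2 cannot be told apart in these contrasts. Of 21 members of exactly 600 bp in replicate 1, the one at Ncam1, a neural cell adhesion molecule, was 2662 bp wide in replicate 2. The one inside an intron of Zfp831 was 792 bp wide there.

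Most wide regions lay at promoters. A region was placed at a promoter when its centre was within 1 kb of an annotated transcription start site (TSS). Of the wide regions, 9506 (79.7%) were at promoters, 268 in exons, 1113 in introns and 1041 between genes. Of the narrower shared runs, which had a median width of 221 bp, 17.9% were at promoters. Taken alone, replicate 1 had 74.2% of its wide and 16.6% of its narrower runs at promoters, and replicate 2 had 73.7% and 14.8%. The promoter share went up with width in the wide bins, with 62.8% from 600 bp to under 800 bp, 81.0% to under 1000 bp, 89.9% to under 1500 bp and 95.1% to under 2000 bp, and it was 92.7% at 2000 bp or more. A TSS lay inside 76.6% of the wide regions and 3.66% of the narrower runs, which a longer stretch is also more likely to hold by its length.

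**Figure D2:**
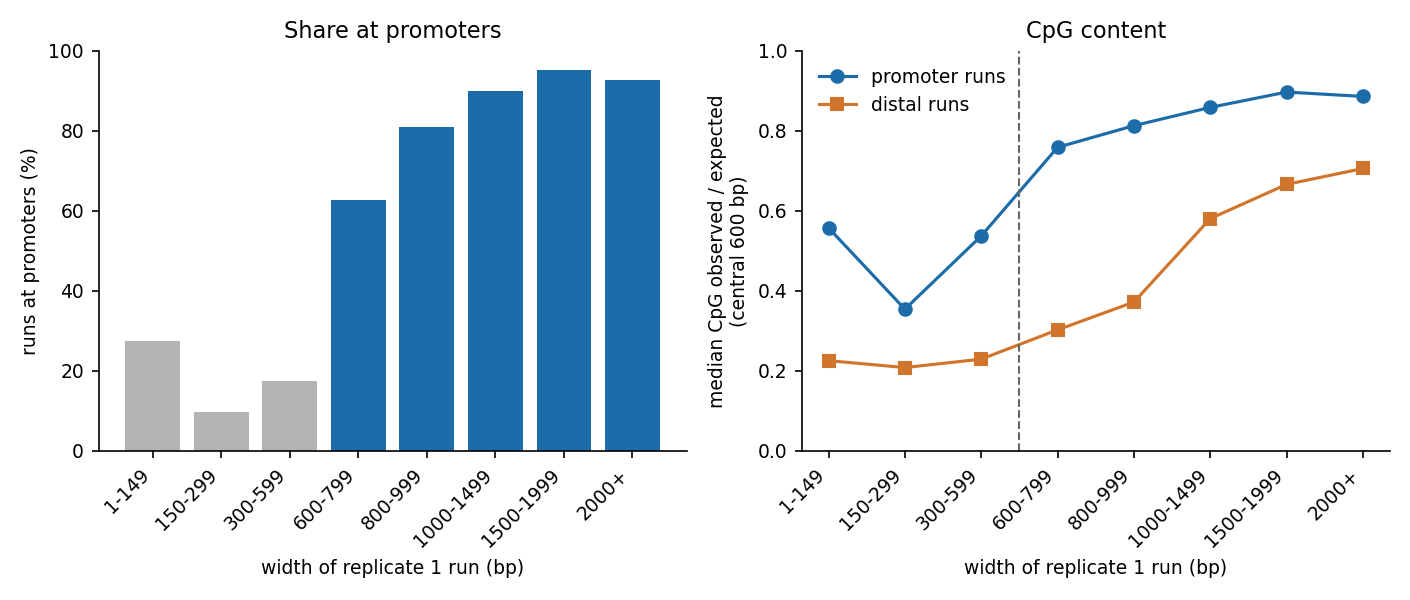
Left, percent of runs at promoters in 8 bins of replicate 1 width, with wide regions in blue and narrower shared runs in grey. Right, median CpG observed over expected in the central 600 bp for promoter runs (circles) and distal runs (squares); the dashed line marks 600 bp. The promoter share is 62.8% to 95.1% in the wide bins and at most 27.4% in the narrower ones, and distal runs go up from 0.303 from 600 bp to under 800 bp to 0.706 at 2000 bp or more.

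CpG content separated the wide regions by place. The ratio of observed to expected CpG was measured in the central 600 bp of every run, so that widths compare. Wide promoter regions had a median of 0.827, against 0.510 for narrower promoter runs. Of these 24148 narrower runs 13112 were under 150 bp wide, and 12984 had a peak. The 600 bp measured at a narrower run thus also takes in sequence outside it, and for most of these runs it is mainly such sequence. Among promoter runs nearer the limit, the median was 0.537 from 300 to under 600 bp and 0.759 for wide regions under 800 bp. Wide distal regions had 0.352, against 0.219 for narrower distal runs. Each library showed the same order on its own, with 0.823 for wide and 0.470 for narrower promoter runs in replicate 1 and 0.820 and 0.430 in replicate 2. For distal runs the values were 0.306 and 0.210 in replicate 1 and 0.321 and 0.215 in replicate 2. A CpG-rich stretch was at least 500 bp of merged 200 bp windows with 50% or more GC and a ratio of 0.6 or more. Such a stretch overlapped 80.2% of the wide regions and 10.7% of the narrower runs. Viewed from the sequence, 33.2% of the 29086 CpG-rich stretches on the autosomes overlapped a wide region. The share was 20.5% for stretches under 1000 bp and 72.4% for those of 2000 bp or more. A longer run or stretch is also more likely to overlap by its length, and this part was not tested. Whole wide regions had a median ratio of 0.740 and a median GC content of 61.3%. Repeats took up a mean of 6.69% of the bases of wide regions, against 11.0% in narrower runs. At least 80% of the 36-mers occurred once in the genome in all but 1.43% of the wide regions and 1.86% of the narrower runs.

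Wide promoter regions extended further into the gene than upstream of it. Among 6718 promoter regions with start sites on 1 strand and the nearest one inside the region, the median reach was 412.5 bp upstream and 566 bp downstream. The downstream side was the longer in 68.0%. The strongest peak itself lay a median of 53 bp upstream of the TSS, and within 150 bp of it in 73.6%. Start sites on both strands within 1 kb were found at 25.7% of wide promoter regions and 13.5% of narrower promoter runs. The wide regions with start sites on both strands had median widths of 1112 and 1192 bp in replicates 1 and 2, against 974 and 1046 bp for those with 1 strand. The 1 kb was counted from the ends of a run, so a wider run is also more likely to have both strands by its length. The part of length in these 2 contrasts was not tested.

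Most wide regions held more than 1 peak centre, 60.5% in replicate 1 and 65.5% in replicate 2. In replicate 1, 4709 of the 11928 regions held 1 peak centre, 5158 held 2, 1483 held 3 and 578 held 4 or more. In replicate 2 these counts were 4112, 5170, 1743 and 903. The median was 2 in both. Some listed peaks lie inside another, as at Jun in replicate 2 and in the Bcl9 intron in replicate 1, and each was counted. How many peaks do so was not counted. Neighbouring peak centres lay a median of 430 bp apart in both libraries, with 90% of the gaps between 230 and 790 bp in replicate 1. Spacings of 150 to 250 bp made up 4.22% and 4.07%, and the smallest spacing the authors' peak caller allows was not tested. Footprints, short protected stretches inside open chromatin, had a median of 6 per region in each library. Per kb, wide regions held 6.19 footprints in replicate 1 and 6.08 in replicate 2, against 6.86 in narrower runs of replicate 1. The strongest peak of a wide region had a median height of 7.83 in replicate 1 and 11.8 in replicate 2, in the authors' signal units, whereas the median over all autosomal peaks was 0.906 and 1.01. Distal wide regions had lower peaks than promoter ones, with medians of 3.62 and 5.19 against 9.10 and 13.8.

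The 10 widest regions are given one by one, with no count of what their genes do. Zfp503, a zinc finger co-repressor, had the widest, 7433 bp in replicate 1 (chr14:21984672-21992104) and 5379 bp in replicate 2, with 15 and 9 peaks and a strongest peak of 15.8 and 25.0. Sin3a, the scaffold of a histone deacetylase complex, followed with 6123 and 3581 bp and 8 and 7 peaks. At Sin3a and Zfp503 the library with the wider run was replicate 1.

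The region of Jun, an AP-1 subunit, measured 4217 and 4240 bp (chr4:95049903-95054119 in replicate 1) with 7 and 8 peaks. Myc measured 3971 and 4281 bp with 8 peaks in each library, and Socs2, an inhibitor of growth hormone signalling, 3953 and 4010 bp with 8 and 10 peaks. In these 3 regions the widths of the libraries lay close together. Ubtf, a factor of ribosomal RNA transcription, had 3468 and 4780 bp. Smarca2, a chromatin remodelling ATPase, had 3904 and 3922 bp, and Hivep2, a zinc finger factor, 3918 and 3887 bp. Foxo3, a forkhead factor, had 3890 and 3901 bp. Zfp36l1, an RNA-binding protein that promotes mRNA decay, had 4285 and 3415 bp. All 10 had a CpG ratio between 0.691 and 0.846.

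The widest regions that the centre rule called distal were mostly the long arms of promoter regions. Of 2422 distal regions, 184 still reached within 1 kb of a TSS. Among the 10 widest distal regions, Zfp503, Smarca2, Zfp36l1, Efna5, Fzd8, Marcks, Tsc22d2, B430305J03Rik and Fat4 all did, with centres 1034 to 1581 bp from the start site. The exception was a region 4251 bp from the start site of Tnrc18, which measured 5058 bp with 10 peaks in replicate 1 (chr5:142819384-142824441) and 2371 bp with 5 peaks in replicate 2.

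The other 2238 wide regions, 18.8% of all, lay over 1 kb from any TSS at both ends. They had median widths of 751.5 and 784 bp and a median distance of 11762 bp from the nearest TSS. The space between genes held 44.9% of them, exons 10.2% and introns the rest. Their median CpG ratio was 0.334, and 27.3% overlapped a CpG-rich stretch. After Tnrc18 the widest on average, chosen after their values were seen, began with a region in an intron of Kdm6b, a histone H3K27 demethylase, of 1297 and 3660 bp, where 3 runs of replicate 1 shared 1 run of replicate 2. A region 141.5 kb from the nearest protein-coding start, that of the homeobox gene Meis1, measured 2395 and 2512 bp (chr11:18876006-18878400). The region in an intron of Peg3, an imprinted gene expressed from the paternal allele, measured 1890 and 2674 bp with 20 and 30 footprints.

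A smaller class of wide regions was poor in CpG. Of all members 1130, or 9.47%, had a ratio under 0.3 in the central 600 bp, and 11.2% of these lay at promoters. Their median widths were 724 and 742.5 bp and their median heights 3.19 and 4.29. The 9068 regions with a ratio of 0.6 or more, of which 93.2% lay at promoters, had medians of 1023 and 1105 bp and heights of 9.38 and 14.1. Among the widest CpG-poor regions, chosen after their values were seen, the one in an intron of Bcl9 measured 1671 and 1663 bp. It lay 70.3 kb from the nearest protein-coding start (chr3:97296866-97298536) and had 5 and 4 peaks. The one nearest Irf2bp2, at 142.2 kb, measured 1599 and 1563 bp. A region in Fads3, of the fatty acid desaturase family, measured 3254 bp in replicate 1 and 1274 bp in replicate 2. One 9.73 kb from the start of Slc13a2, a dicarboxylate transporter, measured 1516 and 1547 bp. The widths of the libraries lay close together in the Bcl9 and Slc13a2 regions and the one nearest Irf2bp2, and far apart in Fads3. They were also far apart in the regions nearest Rnf213 (904 and 2925 bp), Frmd8 (2795 and 720 bp) and Lzts2 (815 and 2543 bp). The same held nearest Clcf1 (940 and 2369 bp) and Tlcd2 (1334 and 2512 bp). Close widths were found nearest Prr16 (2407 and 2448 bp) and Tnfrsf12a (2062 and 2100 bp). The Prr16 region lay at a promoter. Over their whole width, rather than the central 600 bp, the Prr16 and Tnfrsf12a regions had ratios of 0.501 and 0.360.

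**Figure D3:**
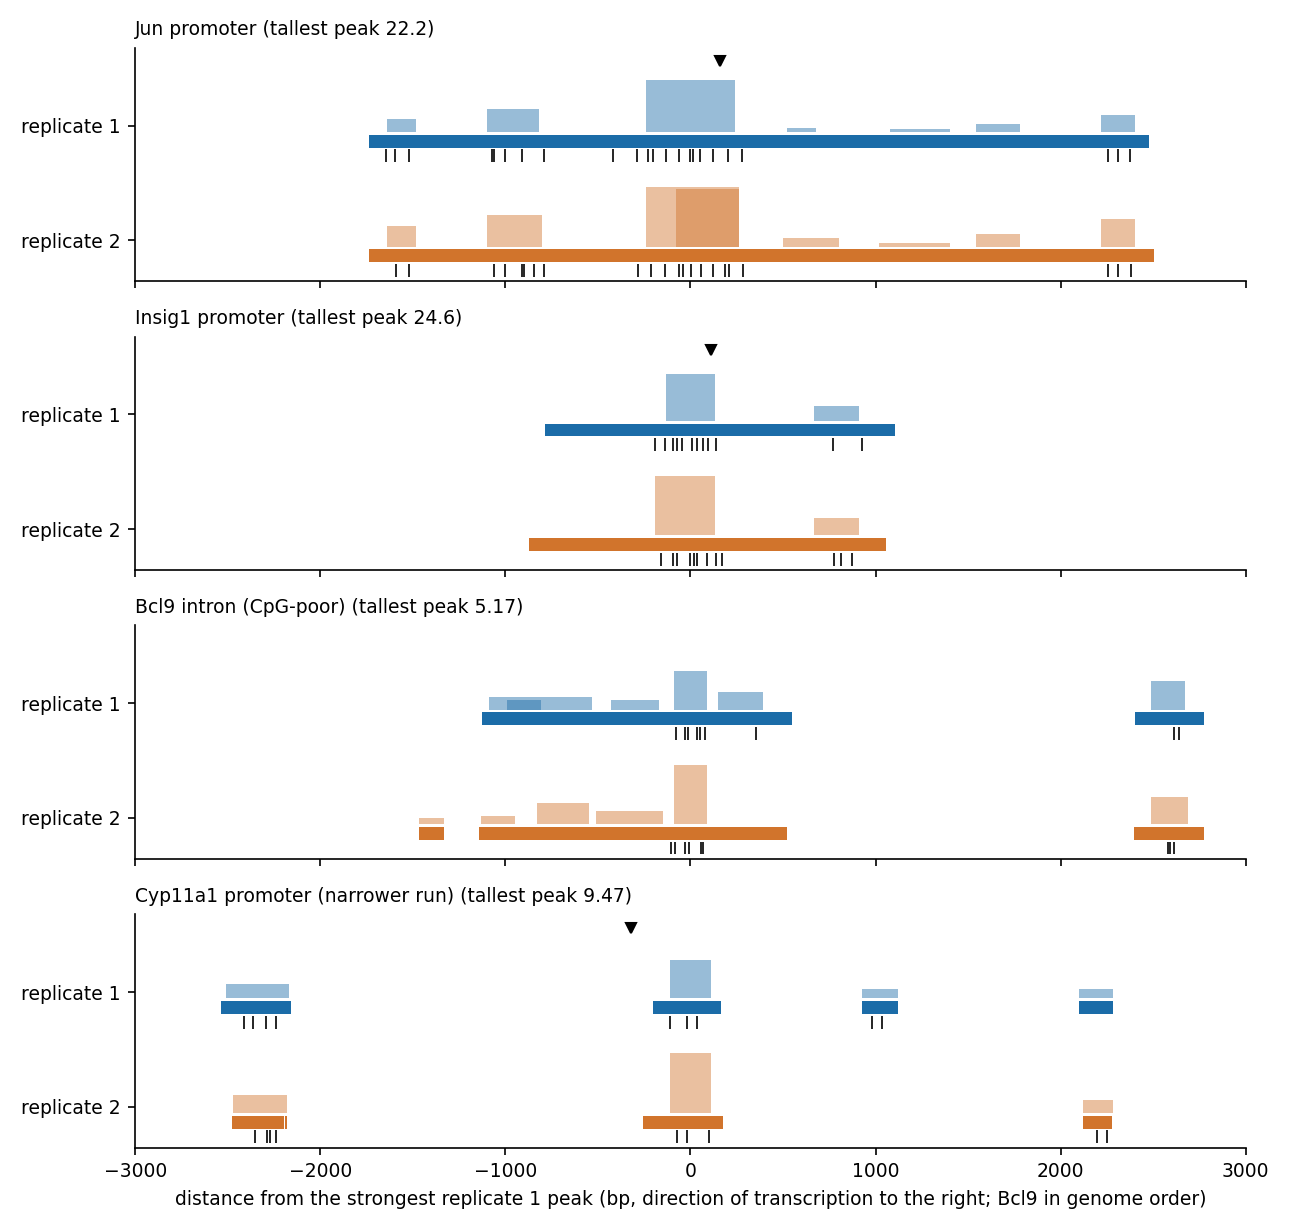
Runs (thick bars), peaks (light boxes, with height scaled to the tallest peak of the panel) and footprints (ticks) of replicate 1 (blue) and replicate 2 (orange) within 3 kb of the strongest replicate 1 peak of 4 loci; triangles mark annotated start sites of the named gene. The Jun run spans 4217 and 4240 bp with a row of peaks, Insig1 1889 and 1930 bp, the Bcl9 intron 1671 and 1663 bp, and the Cyp11a1 promoter run 366 and 434 bp.

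Motifs were counted in the 300 bp around the strongest replicate 1 peak of each run, on both strands, and a match is a description and not a bound site. Windows of wide promoter regions held the GC box GGGCGG in 76.0%, against 33.6% for narrower promoter runs that had a peak. The ETS motif CCGGAAG was present in 19.6% and 5.42%, and the NRF1 core TGCGCA in 17.0% and 6.01%. The YY1 motif AAGATGGC was found in 5.49% and 1.59%. Of these, the GC box, the ETS motif and the NRF1 core contain a CpG, and the part of CpG content in their shares was not tested. Motifs without a CpG divided at promoters. The CCAAT box was found in 37.8% of wide and 30.6% of narrower windows, the CTCF core AGGGGGC in 18.7% and 11.7%, and the RFX core GTTGC in 35.1% and 36.5%. AP-1, written TGANTCA, was found in 4.17% and 12.7%, and GATA, written AGATAA, in 2.90% and 8.98%. The TATA box TATAAA was found in 3.50% and 7.39%. The SF-1 motif CAAGGTCA, named for the steroidogenic factor that Nr5a1 encodes, was found in 0.789% and 3.77%.

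Over all distal runs, AP-1 was found in 23.8% of wide and 25.5% of narrower windows and the SF-1 motif in 5.08% and 6.63%, the same order as at promoters. The GC box was found in 31.8% and 8.83%. Among the CpG-poor distal runs, with a ratio under 0.3, AP-1 was present in 35.6% of the 1004 wide windows and 27.3% of the 66279 narrower ones, the NF1 core TTGGCA in 32.3% and 26.5%, and the SF-1 motif in 8.37% and 7.26%. GATA was present in 13.0% and 15.2%. The GC box was present in 12.2% of the wide and 5.97% of the narrower CpG-poor windows, and the ETS motif in 2.49% and 1.61%. The CRE core TGACG, which also lies inside the full CRE, was found in 15.4% and 10.9%.

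Wide regions reached within 1 kb of a TSS of 9913 of the 20807 autosomal protein-coding genes, or 47.6%, while 69.3% of the genes had any shared run there. The CpG content of the promoter divided the genes. Each gene was given the highest ratio within 300 bp of any of its start sites, which need not be the one at its run. Where this ratio was 0.6 or more, 77.8% of the 11555 genes had a wide region. Where it was lower, 9.97% of the 9252 genes did. A gene with more start sites can more easily have a high ratio and a wide region, and this part was not tested. The lists below are read beside these shares. The lists share a few genes, such as Nr5a1, Nr2f2 and Tcf21, and 1 region can serve neighbouring genes, as that of Hspd1 and Hspe1 does.

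**Figure D4:**
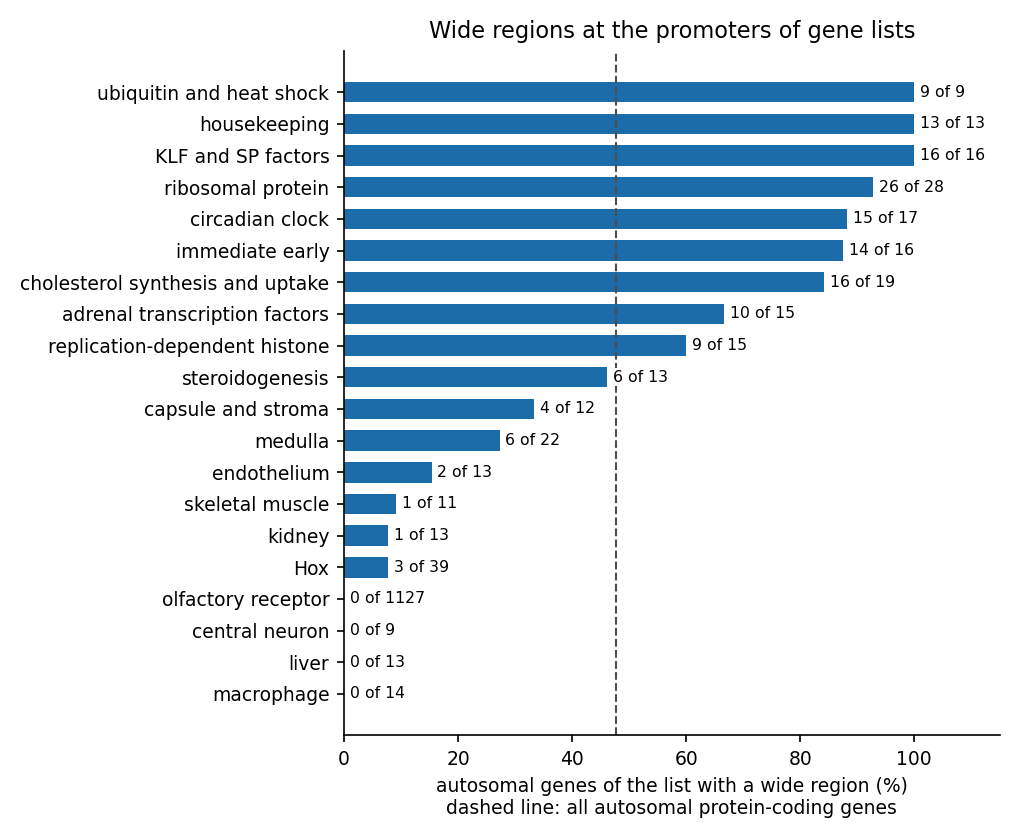
Percent of the autosomal genes of each of 20 lists with a wide region within 1 kb of a TSS; the counts stand beside the bars and the dashed line marks the 47.6% of all autosomal protein-coding genes. KLF and SP factors, housekeeping genes and ubiquitin and heat shock genes are at 100%, and the macrophage, liver, central neuron and olfactory receptor lists at 0%.

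General genes carried wide regions almost throughout. All 13 housekeeping genes, all 9 genes of ubiquitin and heat shock proteins and 26 of 28 ribosomal protein genes had one. A promoter ratio of 0.6 or more was found for 12 of the 13, all 9 and all 28 genes. Of all genes with such a promoter, 77.8% had a wide region. Ywhaz, a 14-3-3 protein, had 2418 and 2454 bp, Eef1a1, the translation elongation factor, 2005 and 1802 bp, and Hsp90ab1, a chaperone, 1216 and 2416 bp. Hspa8, the constitutive heat shock cognate, had 2076 and 2149 bp and Ubb, a polyubiquitin gene, 1533 and 1516 bp. The widest ribosomal protein regions were those of Rpl7 (2601 and 2507 bp), Rpl10a (1637 and 1645 bp) and Rps19 (1506 and 1350 bp). Rpl3 and Rpl4 missed the rule in 1 library each. Of 15 replication-dependent histone genes 9 (60%) had a wide region, led by Hist1h1e with 2192 and 2160 bp, followed by Hist2h2be and by Hist1h1c (818 and 1547 bp). All 15 had a promoter ratio of 0.6 or more, so this share was under the 77.8% of such genes. Where a region had to hold a start site of the gene, 6 had one. Hist1h3a and Hist1h4a shared 1 region. Within 300 bp of their start sites, Hist1h2ab, Hist1h3b, Hist1h4c and Hist1h4i, which lacked a wide region, had 64.2% to 72.7% unique 36-mers. Hist1h1b and Hist2h4, also without one, had 100% and 94.7%. Hist1h2bc and Hist2h3b, which had one, had 58.9% and 63.9%. The effect on the share was not tested. The Hist2h2be region (1295 and 2497 bp) had 78.2% unique 36-mers, so reads from near-identical copies may not be told apart there.

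Among the lists, KLF and SP factors had the highest median width. All 16 KLF and SP factors, zinc finger proteins that bind GC boxes, had a wide region, with a median width of 1773 bp averaged over the libraries, against 1078.5 bp for all genes with one. Klf13 had 2839 and 2927 bp, Sp3 2694 and 2740 bp and Klf3 2020 and 2097 bp. Of 16 immediate early genes 14 had one, led by Jun, Myc and Ier5 (1980 and 1971 bp). Egr3 (370 and 391 bp) and Ier3 (578 and 1036 bp) did not. Of 17 clock genes 15 had one. A promoter ratio of 0.6 or more was found for all 16 KLF and SP genes, all 16 immediate early genes and 15 clock genes. Of those 15 clock genes 14 had a wide region. Of all genes with such a promoter, 77.8% had one. Bhlhe40, a repressor of clock output, had 2491 and 2523 bp, Nfil3, a repressor of D-box genes, 2177 and 2191 bp, and Rora, an activator of Arntl, 1289 and 2803 bp. Among 15 adrenal transcription factors 10 had one. Of the 12 adrenal factors with a CpG-rich promoter 9 did. Cited2, a p300 partner required for adrenal development in mice, had 3183 and 3221 bp. Pknox1, a partner of PBX proteins, had 2161 and 2093 bp, and Rxra, a nuclear receptor partner, 1933 and 2006 bp. Nr5a1, which encodes SF-1 and directs adrenal and steroid gene expression, had a widest run of 327 and 347 bp. Its highest promoter ratio was 0.955. Wt1, with a ratio of 0.774, had 262 and 263 bp, and Gata4 had 610 and 569 bp.

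Of 13 autosomal genes of steroid synthesis 6 had a wide region, or 46.2%, beside the 47.6% of all genes. The genes with a CpG ratio of 0.6 or more numbered 5, and 4 of them had one. Of the other 8 genes 2 did.

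Among receptors and uptake proteins, Scarb1, the HDL receptor that takes up cholesterol ester, had a region of 809 and 912 bp with a strongest peak of 9.19 and 13.7. Mrap, the accessory protein of the ACTH receptor, had 680 and 653 bp. The ACTH receptor gene Mc2r itself had a widest run of 210 bp in replicate 1 and none in replicate 2. Star, which moves cholesterol into mitochondria, had 470 bp in replicate 1 and 784 bp in replicate 2, and so failed the rule in 1 library.

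Among the electron carriers that serve the steroid cytochromes, 3 of 4 had a wide region. Por had 844 and 871 bp, with the tallest peak among the 6 genes of the list with a wide region (20.6 and 28.7), Fdxr 755 and 940 bp and Fdx1 765 and 755 bp, all 3 with a promoter ratio of 0.6 or more. Cyb5a, the cytochrome b5 gene, had 560 and 866 bp and a ratio of 0.595, and so failed the rule in replicate 1. Of the 3 steroid cytochromes on the list, Cyp11a1 and Cyp11b1 had narrower runs. Cyp11a1 had 366 and 434 bp and Cyp11b1, the 11-beta-hydroxylase, had 515 and 427 bp, with promoter ratios of 0.115 and 0.123. Within 300 bp of the start sites, 62.8% of the 36-mers were unique for Cyp11b1 and 100% for Cyp11a1. The width of the Cyp11b1 run is therefore uncertain. Hsd3b1 had no run in either library, although all 36-mers within 300 bp of its start site were unique.

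Cyp21a1, the 21-hydroxylase, was the cytochrome with a wide promoter region, of 668 and 977 bp. Its 36-mers were 49.3% unique, since the gene lies in a duplicated stretch of the genome, so this region is uncertain. The widest of all regions with fewer than 80% unique 36-mers stood 7108 bp from the same gene, inside the pseudogene Tnxa. It measured 2390 and 3620 bp (chr17:34796258-34798647 in replicate 1), had 6 and 8 peaks, 66.6% unique 36-mers and a CpG ratio of 0.169. The next 4 by width among the regions with fewer than 80% unique 36-mers, at Zbtb10, Cdk6, Smarca5 and Hist2h2be, were promoter regions with a ratio of 0.769 or more. No gene of the steroid list kept a wide region at a minimum of 1000 bp.

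**Figure D5:**
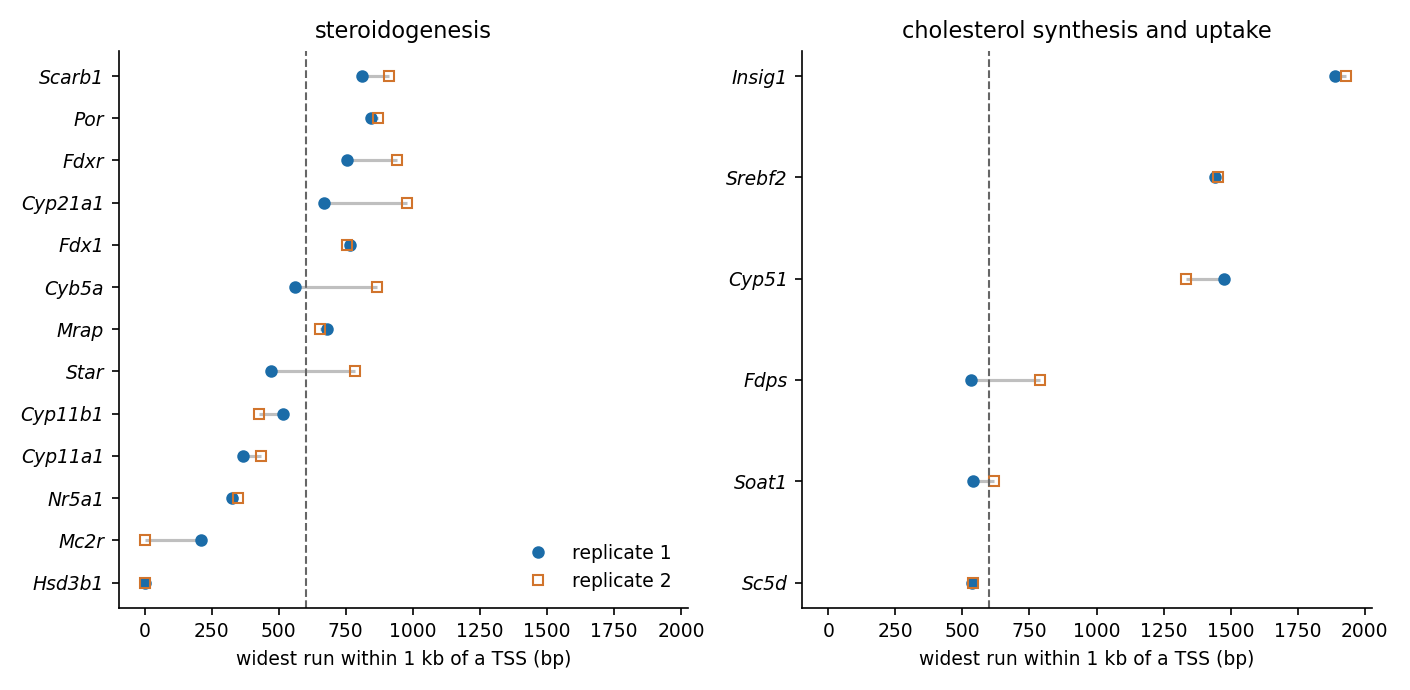
Width of the widest run within 1 kb of a TSS in replicate 1 (filled circles) and replicate 2 (open squares) for the steroid synthesis genes (left) and the 6 genes of cholesterol synthesis and uptake named in the text (right); the dashed line marks 600 bp. Nr5a1 and Cyp11a1 lie under 600 bp in both libraries, Star and Cyb5a on both sides of it, and Insig1 at 1889 and 1930 bp.

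Cholesterol synthesis and uptake, which supply the substrate of the steroid enzymes, had wide regions at 16 of 19 autosomal genes. All 19 promoters had a CpG ratio of 0.6 or more. Insig1, the sterol-regulated anchor of SCAP, had 1889 and 1930 bp, Srebf2, which encodes SREBP-2, the main activator of the pathway, 1441 and 1451 bp, and Cyp51, the lanosterol demethylase, 1475 and 1333 bp. The genes without were Fdps (532 and 788 bp), Soat1 (538 and 616 bp) and Sc5d (535 and 541 bp), all under the minimum in replicate 1.

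Of 22 genes of the adrenal medulla 6 had a wide region, or 27.3%, and 5 of these were among the 12 with CpG-rich promoters. Insm1, a zinc finger factor of neuroendocrine cells, had 1243 and 1130 bp, but its strongest peak was 0.841 and 1.78. Slc18a1, the vesicular monoamine transporter of chromaffin cells, had 1038 and 1085 bp with a strongest peak of 17.8 and 25.5. Chgb, Npy and Ret also had one. The genes of catecholamine synthesis did not have one: Th had a widest run of 362 and 296 bp, Dbh of 357 and 424 bp, Pnmt of 0 and 102 bp, and Ddc had none.

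Lists of other cell types are given with their number of CpG-rich promoters. Endothelium had 2 of 13, Flt1 (1146 and 1383 bp) and Kdr (842 and 809 bp), both VEGF receptors. They were 2 of the 4 endothelial genes with a CpG-rich promoter. Capsule and stroma had 4 of 12: Ptch1, the hedgehog receptor (2802 and 4260 bp), Nr2f2 (829 and 1031 bp), Pdgfra (803 and 923 bp) and Col1a1 (658 and 769 bp). Of the 5 genes of that list with a CpG-rich promoter 3 had a wide region. Macrophage genes had 0 of 14, none of which had a CpG-rich promoter. Of the lists of other organs, kidney had 1 of 13 (Scnn1g, a subunit of the epithelial sodium channel, 789 and 916 bp), skeletal muscle 1 of 11 (Actn3, 856 and 898 bp), liver 0 of 13, central neuron 0 of 9 and olfactory receptor 0 of 1127. CpG-rich promoters numbered 2 of 13 in the kidney list, 1 of 11 in skeletal muscle and 0 of 13 in liver. They were not counted for olfactory receptors. Of all genes with a lower promoter ratio, 9.97% had a wide region. The Actn3 region held no start site of Actn3. Where a region had to hold a start site of the gene, skeletal muscle kept 0 genes and capsule and stroma 2, while endothelium kept 2 and kidney 1.

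In the Hox and central neuron lists most promoters were CpG-rich but few or none had a wide region. Of 39 Hox genes 30 had a CpG-rich promoter, but 3 had a wide region, against the 77.8% of CpG-rich genes. All 3, Hoxd8 (1488 and 1469 bp), Hoxd9 (1216 and 1199 bp) and Hoxd3 (948 and 994 bp), belong to the Hoxd cluster. Any shared run was present at 30 of the 39, and the median widest run was 328 and 340 bp, against 578 and 654 bp over all protein-coding genes. In Hoxb the libraries differed. Hoxb9 had a widest run of 468 bp in replicate 1 and 4099 bp in replicate 2, and Hoxb3 had none in replicate 1 and 1501 bp in replicate 2. Of the central neuron genes 6 of 9 had a CpG-rich promoter and none had a wide region.

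A few regions differed strongly in width between the libraries, and these were chosen for that difference after the values were seen. The largest was a region at Ubtf of 1228 bp in replicate 1 whose partner in replicate 2 measured 4780 bp, because that run also covered the 3468 bp Ubtf region named above. At Irf2bp2, a transcriptional co-repressor, the promoter region measured 3994 and 1296 bp, at Meis1 2799 and 823 bp. The wider library was replicate 2 at the first and replicate 1 at the other two. In all, 351 regions shared their partner in replicate 2 with another region, and 70 overlapped more than 1 wide run there.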

How the data were processed

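DNase-seq files of 2 adrenal libraries were analysed. All coordinates are mm10, and the authors derived every file from the alignments of its own library, without pooling, per the deposited read-me texts. Aligner, callers and versions were not given in the sources used here. False discovery rates were deposited as q-values under 0.05 (a p-value-like unit) per stretch of bases. The deposited peak heights are a signal scaled by the authors in a way not stated, and the deposited footprint lists carry a constant p-value of 0.01. The number of reads was not analysed here, so no counting interval is given. Reads of both parental strains were placed on 1 reference, and its effect was not tested.

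Runs were joined and compared in Python 3.11.15 with numpy 2.4.6, pandas 2.3.3, numba 0.67.0 and matplotlib 3.10.9. Start sites came from the basic set of GENCODE M21, and sequence from the RefSeq copy of GRCm38.p6, whose chromosomes are at least as long as the last listed base. Peaks (longer list) and footprints were counted by their centre, for replicate 2 in the widest partner run. The functions were tested on simulated data. The 20 gene lists, 15 motifs and the members were chosen with earlier results of these data known. Named regions were the 10 widest and 10 widest distal with at least 80% unique 36-mers, the 5 with most peaks, the 5 widest with fewer unique 36-mers, the widest 3 genes of each list and members at 600 bp. The alternatives moved the threshold, the gap joined, the width, the overlap, the promoter definition and the libraries. Some genes and regions that this rule names are not reported here.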

Additional observations from a re-analysis of the deposited data

Results flagged for a closer look

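The rule covers autosomes, and the sex chromosomes were looked at because they hold signal outside the main measurement. On the X chromosome 331 regions of 600 bp or more were shared by both libraries, 5.65% of its 5862 runs in replicate 1. Their median widths were 919 and 1022 bp, and 85.2% lay at promoters. The Y chromosome, which female mice lack, had 33 runs in replicate 1 and 33 in replicate 2. The widest measured 630 and 564 bp, and none was 600 bp or more in both libraries. The origin of these runs was not tested.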

How the results depend on the processing

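With a threshold of 0.001 in place of 0.05 there were 7950 wide regions, with a minimum width of 400 bp 21813 and with 1000 bp 4803. The promoter share was 84.5% at a threshold of 0.01, 87.9% at 0.001, 77.1% with gaps of up to 50 bp joined, 57.3% at 400 bp and 92.5% at 1000 bp. By another definition of a promoter it was 75.5% within 500 bp, 76.2% with protein-coding start sites alone and 76.6% where the region held a start site. It was 81.2% where the region reached within 1 kb of one, a definition chosen after seeing the data. The median CpG ratio of whole regions was 0.769 at 0.01, 0.793 at 0.001, 0.724 with gaps joined, 0.610 at 400 bp, 0.788 at 1000 bp and 0.788 in the central 600 bp. The median number of peaks was 1 at 400 bp. The median number of footprints was 7 at 0.001, 5 at 400 bp and 8 at 1000 bp. The share of protein-coding genes was 42.6% at 0.01, 36.1% at 0.001, 57.1% at 400 bp and 24.0% at 1000 bp. Taking the wide runs of 1 library alone gave promoter shares of 73.7% and 74.2%, CpG ratios of 0.709 and 0.721 and gene shares of 52.5% and 49.0%. A value was counted as moved when it changed by more than the SD between the libraries or, for the number of regions, by over 1.5 times. By that measure 30 of 61 recomputed values did not move, among them those with 50% reciprocal overlap and those without regions under 80% unique. At 1000 bp the steroid list kept 0 genes and the KLF and SP list 14; at 0.001 they kept 2 (Fdxr and Por) and 14. No paired analysis was possible because there is 1 group. Depth per library is unknown here, so a run that ends at the threshold may be longer at greater depth.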

Other observations

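Wide regions were spread unevenly over the autosomes. Chromosome 11 had the highest density, 8.10 per Mb with 989 regions, followed by chromosome 19 with 6.71 per Mb, and chromosome 14 the lowest with 3.53 per Mb. As a share of each chromosome's runs the values were closer, 6.37% on chromosome 11 and 4.89% on chromosome 14. Most regions stood alone, with no other within 5 kb in 86.3% of cases, while 756 groups of 2 or more lay within 5 kb of each other and 15 groups had 4 or more. The largest group had 6 regions over chr11:78176225-78195235, at Rab34, Rpl23a, Proca1, Nek8 and Tlcd1. The next had 5 regions at Zfp36, which encodes a protein that promotes decay of inflammatory mRNAs, and Plekhg2. Groups of 4 were found at Zfp503, at Nr1d1 and Msl1, at Id2, an inhibitor of bHLH factors, and at Junb and Hook2.

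Genes of other annotated types differed in how many had a wide region. Of 190 genes annotated as long non-coding RNAs from bidirectional promoters 148 had one (77.9%), of 2913 antisense genes 610 (20.9%), of 5209 lincRNA genes 447 (8.58%) and of 2054 miRNA genes 162 (7.89%). A bidirectional promoter is shared with a coding gene, and the type itself thus fixes a promoter nearby.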
